A study of Homo sapiens with 18 samples.

Results

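MAPK phosphatase, Sprouty and SPRED genes, which encode feedback inhibitors of MAP kinase signalling, were followed through cisplatin treatment in a sensitive and a resistant ovarian carcinoma line. The group was chosen by gene name and holds 10 genes: DUSP1, DUSP4, DUSP5, DUSP6, DUSP8 and DUSP10 among the MAPK phosphatases, SPRY2 and SPRY4 among the Sprouty genes, and SPRED1 and SPRED2. Of these, 9 had a row in the gene count table of 23622 genes. DUSP10 had no row under its symbol or its Ensembl identifier, so its RNA was not analysed here. The filter on low counts kept 8 of the 9, and the number of genes tested over the whole table was 15760. DUSP4 did not pass the filter and is given by its raw counts.

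The study compared A2780, an established human ovarian carcinoma line sensitive to cisplatin, with Acis (A2780cis), a cisplatin-resistant line derived from A2780. Each line was left untreated (control) or incubated with 200 µM cisplatin for 3 h. Ribosomal RNA-depleted, stranded RNA-seq gave 3 libraries in each of the 4 groups, and ATAC-seq, which maps open chromatin, gave 1 peak list for each of the same groups. Repair maps of the same lines were not analysed here. Acis cells were also given 1 µM cisplatin every 3 passages to keep their resistance, so the Acis control cells had earlier exposure to the drug. All cells came from a single pair of lines, and the labels do not say that the 3 libraries of a group were separate cultures grown on different days, so the p-values measure only the spread between these libraries, which may be technical.

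MAP kinase cascades pass signals from growth factor receptors and from stress to the nucleus through ERK, JNK and p38 kinases. The MAPK phosphatases (DUSP) remove the activating phosphates from these kinases, while Sprouty and SPRED proteins act higher up, between receptors, RAS and RAF. Many of these genes are themselves switched on by ERK, p38 or JNK activity, which closes a negative feedback loop, and cisplatin is a DNA crosslinking agent known to activate the stress kinases.

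RefSeq promoter windows were found for 8 of the 10 genes. DUSP4 and DUSP5 had no window, so their promoters were not searched. The 250 bases before the annotated start (GRCh38.p14) of 4 of the 8 are shown to set the 2 promoters with a full cAMP response element (CRE, TGACGTCA) beside a phosphatase and a SPRED gene without it. Each is written 5′ to 3′ on the strand of the gene, and capitals mark each match to its core, TGACG, on either strand. A full CRE contains this core on both strands, so it stands as 8 capitals.
DUSP1, chr5:172771196-172771445, minus strand: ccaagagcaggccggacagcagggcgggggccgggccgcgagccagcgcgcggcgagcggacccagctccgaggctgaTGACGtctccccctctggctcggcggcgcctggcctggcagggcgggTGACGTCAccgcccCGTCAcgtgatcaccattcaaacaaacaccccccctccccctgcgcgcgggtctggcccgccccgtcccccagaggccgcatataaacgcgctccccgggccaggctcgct
DUSP8, chr11:1572272-1572521, minus strand: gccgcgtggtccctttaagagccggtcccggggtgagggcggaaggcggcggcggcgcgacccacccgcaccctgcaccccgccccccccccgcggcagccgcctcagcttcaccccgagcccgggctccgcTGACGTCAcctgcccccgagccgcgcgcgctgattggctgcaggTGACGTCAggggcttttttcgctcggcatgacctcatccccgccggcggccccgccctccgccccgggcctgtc
DUSP6, chr12:89352502-89352751, minus strand: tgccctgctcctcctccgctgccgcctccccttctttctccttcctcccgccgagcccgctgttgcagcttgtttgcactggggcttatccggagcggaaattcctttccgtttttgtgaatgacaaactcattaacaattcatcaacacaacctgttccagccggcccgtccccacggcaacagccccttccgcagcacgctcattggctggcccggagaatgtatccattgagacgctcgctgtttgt
SPRED2, chr2:65432600-65432849, minus strand: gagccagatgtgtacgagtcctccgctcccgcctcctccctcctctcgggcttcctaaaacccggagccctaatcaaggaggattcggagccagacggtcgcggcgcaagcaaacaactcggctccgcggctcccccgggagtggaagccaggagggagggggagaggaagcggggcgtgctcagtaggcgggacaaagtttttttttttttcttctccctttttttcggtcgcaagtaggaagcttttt
The DUSP1 window held 1 full CRE, beginning at base -125 from the start, and a TATA match (TATAAA) at -30. The DUSP8 window held 2 full CREs, at -118 and -74. No match to the full CRE was found in the windows of DUSP6, DUSP10, SPRY2, SPRY4, SPRED1 or SPRED2. Over all 27305 genes with a RefSeq window, 1.77% held the full CRE and 21.7% the TGACG core, so the 8-base match was uncommon and the shorter one was not. SPRY2 and SPRY4 each held 1 TGACG core, and SPRY2 also held 1 ETS core match (CCGGAA), found in 14.8% of all windows. The AP-1 site TGANTCA (6.6% of all windows) and the CArG box (1.14%) matched in none of the 8 windows. These are letter matches on both strands and say nothing of which factors were bound. Where RefSeq lists several starts for a gene, the first listed was used. The RefSeq start of SPRY4 lies 2208 bp inside the start given by GENCODE.

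The total count per library ran from 4130644 to 5072216, so a gene with a few counts in a library was measured with a wide counting error. Of 8 epithelial and ovarian carcinoma markers, 3 had a row in the table (EPCAM, KRT8 and KRT18). Their summed normalized counts lay between 34.6 and 63.7 in the 6 A2780 libraries and between 135 and 159 in the 6 Acis libraries, and KRT18 made up most of the Acis sum. Only KRT18 was higher in Acis control than in A2780 control (mean 143 against 25.5 normalized counts). EPCAM (0.734 against 3.55) and KRT8 (4.06 against 15.6) were lower there. PAX8, WT1, MUC16, KRT19 and CDH1 had no row in the table used here. All 5 fibroblast markers had a row. In A2780 their sum was 1677 to 1826 without and 1287 to 1469 with cisplatin, led by COL1A1 and COL1A2. In Acis it was 18.1 to 29.9 without and 17.7 to 26.5 with the drug. Of the leukocyte markers CD14 alone had a row, at no more than 3.75 normalized counts, and none of 4 endothelial markers had a row. These marker levels separated the lines, and their part in the differences between lines given below was not tested.

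The abundance of the transcripts was compared per length of exon as RPKM (counts scaled to exon length and library size). Exon length covers all annotated transcripts of a gene, and the order holds for that length. The SD does not cover which transcripts were expressed. In A2780 control SPRY2 was highest at 57.3 ± 1.07 RPKM (SD, n = 3). DUSP6 (53.9 ± 1.75 RPKM) and SPRY4 (53.7 ± 1.47 RPKM) followed and overlapped each other. SPRED2 stood at 42.0 ± 1.45 RPKM and SPRED1 at 24.4 ± 0.688 RPKM. The inducible phosphatases were far lower, with DUSP5 at 6.65 ± 0.187 RPKM and DUSP1 at 4.91 ± 0.580 RPKM, and DUSP8 and DUSP4 were close to absent at 0.259 and 0.0192 RPKM. In Acis control the order changed at the top: DUSP6 led at 77.7 ± 0.852 RPKM, ahead of SPRY4 at 66.4 ± 1.77 RPKM. SPRED2 (45.6 ± 0.878 RPKM) and SPRY2 (44.1 ± 1.72 RPKM) came next, with ranges that overlapped, and SPRED1 stood at 13.8 ± 0.475 RPKM. DUSP5, DUSP1, DUSP8 and DUSP4 kept the same order below them.

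**Figure D1:**
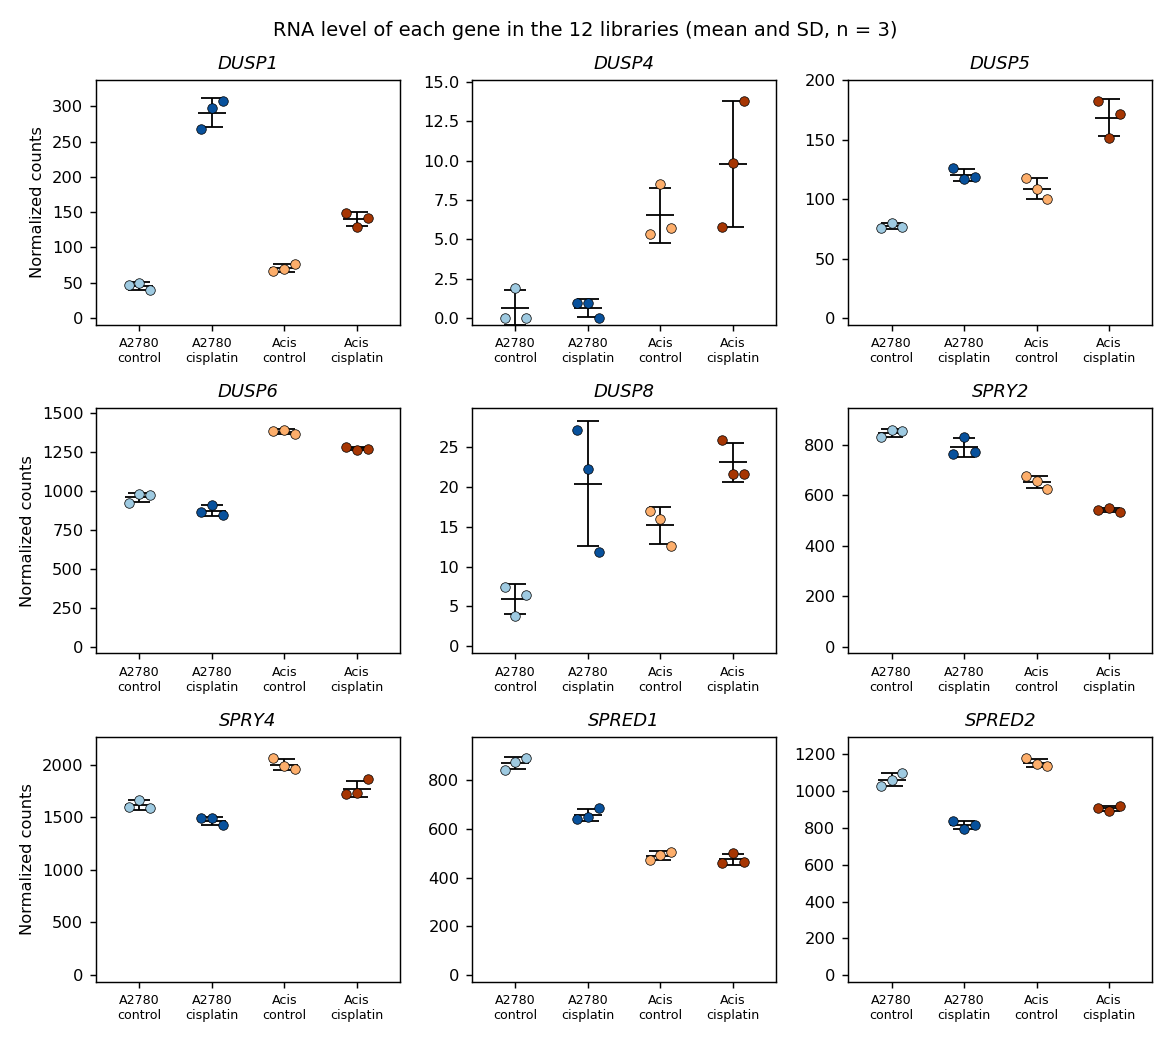
Normalized counts (counts divided by the TMM-scaled library size relative to the mean library) of the 9 genes in the 12 libraries, each axis starting near 0. Points are libraries, and bars show the mean and SD of 3 libraries; DUSP1 is highest in A2780 cisplatin (268 to 307), whereas DUSP6 and SPRY4 are highest in Acis control.

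The first comparison asked which feedback genes responded to 3 h of cisplatin in the sensitive line. The inducible phosphatases DUSP1, DUSP8 and DUSP5 rose in A2780, DUSP1 by 6.37-fold, while the abundant genes SPRED1 and SPRED2 fell by smaller amounts under either scaling. The 5 decreases were at most 1.32-fold, and those of DUSP6, SPRY2 and SPRY4 did not pass when libraries were scaled by total counts. All 8 tested genes passed an adjusted p of 0.05 (edgeR quasi-likelihood test with Benjamini-Hochberg adjustment over 15760 genes), 3 upward and 5 downward, in a comparison where 21.2% of all genes passed upward, 28.2% downward and 49.5% in either direction. With a log2 fold change of at least 1 required as well, DUSP1 and DUSP8 remained, both upward, against a background of 4.14% upward and 1.48% downward. The 3 libraries of each group did not overlap in 3 genes that were higher after cisplatin and 4 that were lower (26% and 31.3% of all genes). The median log2 fold change of the 8 genes was -0.12 and that of all genes -0.011.

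DUSP1 (ENSG00000120129) encodes a nuclear, rapidly induced phosphatase that acts on p38, JNK and ERK. Its single annotated transcript spans chr5:172768096-172771195 on the minus strand. It stood at 46.6, 50.01 and 39.5 normalized counts in the A2780 control libraries and at 268, 298 and 307 in the A2780 cisplatin libraries. Every treated library lay far above every control library. The log2 fold change was 2.67 ± 0.10 (SE, adjusted p = 4.02e-17), the 48th highest among the 15760 genes.

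DUSP8 (ENSG00000184545, chr11:1554051-1572271, minus strand), a phosphatase of JNK and p38, was scarce. Its raw counts were 8, 4 and 6 in A2780 control and 29, 23 and 12 after cisplatin. The groups did not overlap, but replicate 3 of the treated group lay well below the other two. The log2 fold change was 1.78 ± 0.34 (adjusted p = 9.50e-05), or 3.43-fold. DUSP8 passed the filter on low counts through the groups in which it was higher.

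DUSP5 (ENSG00000138166, chr10:110497907-110511533, plus strand) encodes a nuclear phosphatase specific for ERK. It rose from 75.6, 79.8 and 76.9 normalized counts to 126, 117 and 119, with no overlap. The log2 fold change was 0.64 ± 0.10 (adjusted p = 1.15e-05). DUSP6 (ENSG00000139318, chr12:89347235-89352501, minus strand), the cytoplasmic ERK phosphatase, stood at 921, 976 and 973 normalized counts in control and at 862, 909 and 845 after treatment. The groups were adjacent without overlapping, and the log2 fold change was -0.13 ± 0.04 (adjusted p = 0.00581).

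SPRED1 and SPRED2 are EVH1-domain relatives of Sprouty, and SPRED1 brings the RAS inactivator neurofibromin to the membrane. SPRED1 (ENSG00000166068, chr15:38252836-38357249, plus strand) fell from 842, 875 and 890 normalized counts to 640, 649 and 686, a log2 fold change of -0.40 ± 0.04 (adjusted p = 1.34e-08). SPRED2 (ENSG00000198369, chr2:65310851-65432637, minus strand) fell from 1027, 1062 and 1101 to 837, 797 and 816 normalized counts, a log2 fold change of -0.38 ± 0.04 (adjusted p = 4.27e-09). In both genes every treated library lay below every control library.

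SPRY4 (ENSG00000187678, chr5:142310427-142326455, minus strand), an inhibitor of receptor-driven ERK activation, stood at 1598, 1668 and 1585 normalized counts in control and at 1492, 1488 and 1422 after cisplatin. Its log2 fold change was -0.14 ± 0.04 (adjusted p = 0.00197). SPRY2 (ENSG00000136158, chr13:80335976-80341126, minus strand), which acts at the same step, had 828, 858 and 853 normalized counts in control and 761, 832 and 772 after cisplatin. Here 1 treated library lay inside the control range. The log2 fold change of SPRY2 was -0.10 ± 0.04 (adjusted p = 0.0442), and it was not past the threshold when 1 of 4 single libraries was left out (adjusted p between 0.0817 and 0.161). When libraries were scaled by their total counts the median log2 fold change of all genes moved from -0.011 to 0.10, SPRY2 turned to 0.017, and DUSP6 (-0.013) and SPRY4 (-0.022) no longer passed, so that 5 genes did, 3 upward and 2 downward. DUSP1, DUSP5, DUSP8, SPRED1 and SPRED2 passed under either scaling.

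**Figure D2:**
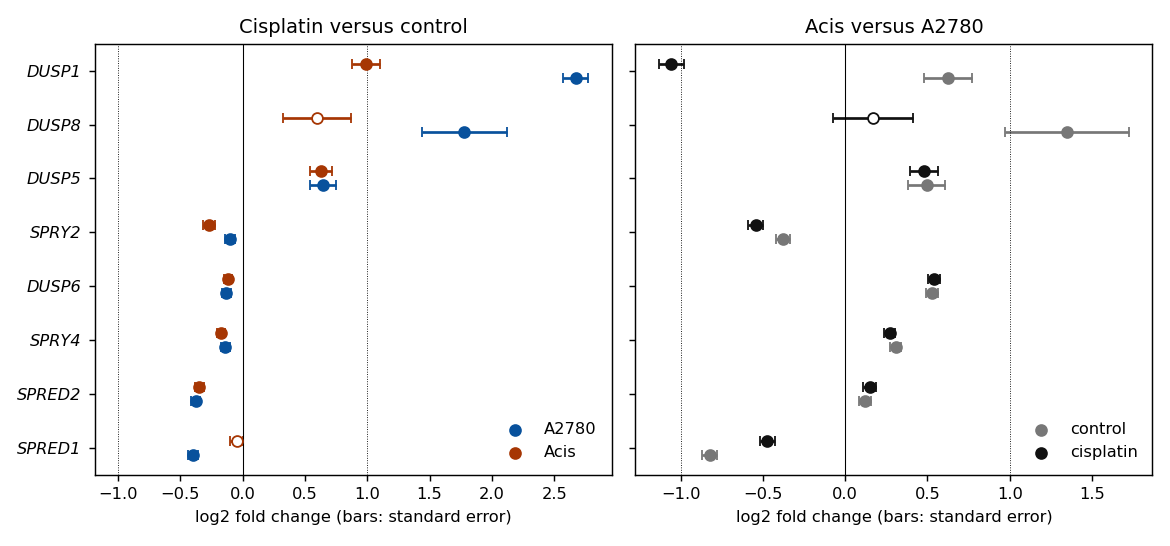
log2 fold changes with standard errors (edgeR) of the 8 tested genes, for cisplatin versus control in each line (left) and for Acis versus A2780 in each condition (right). Filled points passed an adjusted p of 0.05, open points did not, and dotted lines mark a log2 fold change of 1 in either direction; DUSP1 is at 2.67 in A2780 and 0.99 in Acis.

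The same question was asked of the resistant line. In Acis DUSP1 and DUSP5 rose after cisplatin and SPRY2, SPRY4 and SPRED2 fell, all by less than 2-fold, and DUSP6 fell with TMM but not with total-count scaling. Of the 8 tested genes 6 passed the adjusted p, 2 upward and 4 downward, where 9.35% of all genes passed upward and 12.4% downward. None of the 8 also reached a log2 fold change of 1 (background 1.64% upward and 0.374% downward), with DUSP1 at 0.99 just below it. The groups did not overlap in 3 genes that were higher and 4 that were lower (16.8% and 17.5% of all genes). The median log2 fold change of the 8 genes was -0.081, and that of all genes 0.012.

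DUSP1 stood at 65.9, 69.3 and 76.4 normalized counts in Acis control and at 149, 129 and 141 after cisplatin. The groups did not overlap, and the log2 fold change was 0.99 ± 0.11 (adjusted p = 1.60e-07), or 1.99-fold. Leaving out Acis control replicate 3 or Acis cisplatin replicate 2, scaling by total counts, or merging the closest replicates put it past a log2 fold change of 1. DUSP5 went from 118, 109 and 100 to 182, 152 and 172 normalized counts, a log2 fold change of 0.63 ± 0.09 (adjusted p = 8.94e-06). DUSP8 had 16, 15 and 11 raw counts in control and 27, 22 and 22 after treatment. Its groups did not overlap, yet the log2 fold change of 0.60 ± 0.27 did not pass (adjusted p = 0.124).

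Among the inhibitors above RAF, SPRED2 had the largest decrease in Acis. Its normalized counts were 1179, 1149 and 1135 in control and 908, 892 and 921 after cisplatin, a log2 fold change of -0.35 ± 0.04 (adjusted p = 6.65e-08). SPRY2 fell from 674, 657 and 624 to 542, 548 and 534 normalized counts, a log2 fold change of -0.27 ± 0.05 (adjusted p = 0.000132). Every treated library of these genes was below every control library. SPRY4 fell from 2059, 1988 and 1955 to 1721, 1734 and 1860 (log2 fold change -0.18 ± 0.03, adjusted p = 0.000339). DUSP6 went from 1384, 1389 and 1361 to 1280, 1261 and 1269 normalized counts (log2 fold change -0.12 ± 0.03, adjusted p = 0.0134), and it did not pass under total-count scaling. SPRED1 had 473, 494 and 506 normalized counts in control and 461, 500 and 464 after cisplatin. These groups overlapped, and the log2 fold change was -0.05 ± 0.05 (adjusted p = 0.623).

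Whether the response differed between the lines was tested directly, as the cisplatin log2 fold change in Acis minus that in A2780. DUSP1 responded less in Acis and SPRED1 fell less in Acis. These were the 2 of 8 genes past an adjusted p of 0.05, where 13.4% of all genes passed upward, 5.48% downward and 18.9% in either direction. For DUSP1 the difference was -1.68 ± 0.17 (adjusted p = 1.14e-07), which is a response 3.21-fold smaller. For SPRED1 it was 0.35 ± 0.07 (adjusted p = 0.000503). The difference for DUSP8 was as large as -1.18 but with a standard error of 0.45 (adjusted p = 0.0687). It passed without A2780 cisplatin replicate 3, its lowest treated library (-1.45, adjusted p = 0.0178), and when the closest replicates were merged (-1.39, adjusted p = 0.0477). SPRY2 had a difference of -0.17 ± 0.06 (adjusted p = 0.0652), which passed with RLE factors (adjusted p = 0.0402) and total counts (adjusted p = 0.0110), and without A2780 cisplatin replicate 1 (adjusted p = 0.0418) or Acis control replicate 3 (adjusted p = 0.0408). DUSP5 rose by nearly the same amount in each line, with a difference of -0.014 ± 0.14. For DUSP6, SPRY4 and SPRED2 the differences were 0.014, -0.037 and 0.029, with standard errors of 0.05.

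The untreated lines were then compared, to see which of the genes already differed before cisplatin. All 4 tested phosphatases were higher in Acis control than in A2780 control, SPRY4 and SPRED2 were higher by smaller amounts, and SPRY2 and SPRED1 were lower. All 8 genes passed the adjusted p, 6 upward and 2 downward, where 28.2% of all genes passed upward and 30.6% downward, together 58.9%, so that most of the table differed between the lines. The libraries did not overlap in any of the 8 genes, 6 higher and 2 lower (31% and 33.3% of all genes). The median log2 difference was 0.40 over the 8 genes and -0.010 over all genes. DUSP8 was the gene past a log2 fold change of 1 as well (background 6.99% upward), at 1.35 ± 0.38 (adjusted p = 0.00304). Its raw counts were 8, 4 and 6 in A2780 control and 16, 15 and 11 in Acis control. DUSP8 passed the filter on low counts through the groups in which it was higher, so this call is not independent of the filter.

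The DUSP1 level of Acis control (70.5 ± 5.37 normalized counts, SD, n = 3) was above that of A2780 control (45.4 ± 5.37) without overlap, a log2 difference of 0.62 ± 0.15 (adjusted p = 0.000597). It remained far below the level of 291 ± 20.6 in treated A2780. For DUSP5 the untreated Acis level of 109 ± 8.80 normalized counts was 0.49 ± 0.11 above A2780 control on the log2 scale (adjusted p = 0.000360). Its range, 100 to 118, reached up to that of treated A2780, 117 to 126. DUSP6 had the smallest adjusted p among the phosphatases, with 1378 ± 15.1 against 957 ± 31.0 normalized counts, a log2 difference of 0.53 ± 0.04 (adjusted p = 5.34e-13). The untreated DUSP8 level in Acis, 15.2 ± 2.34 normalized counts, lay within the range of the treated A2780 libraries, 11.8 to 27.2.

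SPRED1 was 1.77-fold lower in Acis control, at 491 ± 16.9 normalized counts against 869 ± 24.5 (log2 difference -0.82 ± 0.05, adjusted p = 7.97e-15). The untreated Acis level of SPRED1 was thus also below the treated A2780 level of 658 ± 24.2. SPRY2 was lower at 651 ± 25.3 against 846 ± 15.8 normalized counts (log2 difference -0.38 ± 0.04, adjusted p = 2.35e-08). SPRY4 was higher at 2001 ± 53.3 against 1617 ± 44.3 (log2 difference 0.31 ± 0.03, adjusted p = 1.38e-08). SPRED2, at 1154 ± 22.2 against 1063 ± 36.8 normalized counts, differed by 0.12 ± 0.04 on the log2 scale (adjusted p = 0.00576), and this call was lost in DESeq2 (adjusted p = 0.0594) and without A2780 control replicate 1 (adjusted p = 0.0912) or Acis control replicate 1 (adjusted p = 0.0577).

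DUSP4 (ENSG00000120875), a nuclear phosphatase of ERK, JNK and p38, had 0, 2 and 0 raw counts in A2780 control and 1, 1 and 0 in A2780 cisplatin. It had 5, 8 and 5 raw counts in Acis control and 6, 10 and 14 in Acis cisplatin. Every Acis library was therefore above every A2780 library, at levels too low for the filter. Summed over libraries and scaled to depth, the ratio of Acis control to A2780 control was 9.96 (18 against 2 counts, 95% interval 2.38 to 88.5), and between the treated lines it was 15.2 (30 against 2 counts, 3.86 to 131). The ratio of treated to untreated Acis was 1.49 (0.806 to 2.85), an interval that includes no change, and the one in A2780 rests on 2 counts against 2. These intervals cover counting error only. With no filter on low counts, edgeR gave DUSP4 an adjusted p of 0.00126 between the untreated lines and 2.31e-05 between the treated lines.

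Between the treated lines 7 of the 8 tested genes passed the adjusted p, 4 upward in Acis and 3 downward (31.8% and 31.2% of all genes, 63% together). The same 4 and 3 genes had libraries that did not overlap (33.7% and 33.1%). DUSP1 was the gene that also passed the fold threshold (background 7.28% upward and 11.9% downward). Its level in Acis cisplatin, 140 ± 10.0 normalized counts, was 2.08-fold below that in A2780 cisplatin, a log2 difference of -1.06 ± 0.08 (adjusted p = 1.70e-12), so its order between the lines was the opposite of that without drug. Without Acis cisplatin replicate 2, the lowest of the 3, the log2 difference of DUSP1 was -0.996, just short of the threshold. DUSP5 stayed higher in Acis (169 ± 15.6 against 121 ± 5.00 normalized counts, log2 difference 0.48 ± 0.09, adjusted p = 2.29e-05). DUSP6 stayed higher by 0.54 ± 0.04 on the log2 scale (1270 ± 9.16 against 872 ± 33.2). DUSP8 reached 23.1 ± 2.47 normalized counts in treated Acis and 20.4 ± 7.86 in treated A2780, which overlapped (log2 difference 0.17 ± 0.24, adjusted p = 0.571). SPRY2 and SPRED1 remained lower in Acis, by log2 differences of -0.54 ± 0.04 and -0.47 ± 0.05, and SPRY4 and SPRED2 higher, by 0.27 ± 0.03 and 0.15 ± 0.04. The 5 comparisons share libraries, and each of the 4 groups enters 3 of them, the difference between responses included.

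Gene length moved with the response to cisplatin over the whole table, and the 8 genes span lengths from 3100 bp (DUSP1) to 121787 bp (SPRED2). In A2780 the median log2 fold change was 0.22 for the 3869 tested genes of 1 to 10 kb, 0.09 for those of 10 to 30 kb, and -0.39 for the 2107 genes in the class that starts at 100 kb. SPRED1 (104414 bp) and SPRED2 lay at the 48.1 and 50.97 percentile of their class, that is, at the middle of genes of like length. DUSP1 lay at the 99.3 percentile of genes of 1 to 10 kb. Within 10 to 30 kb, DUSP8 (18221 bp) was at the 98.8 percentile and DUSP5 (13627 bp) at the 92.7. DUSP6 (5267 bp), SPRY2 (5151 bp) and SPRY4 (16029 bp) were below most genes of their length, at the 14.9, 16.1 and 15.4 percentile.

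In Acis the class medians were closer to 0, at 0.09 for 1 to 10 kb and -0.17 for the class that starts at 100 kb. SPRED1 was at the 73.5 percentile of its class and SPRED2 at the 20.8. For the difference between the lines, long genes as a class had a median of 0.19, and SPRED1, at 0.35, was at the 72.8 percentile of it. DUSP1 and DUSP8 were at the 1.63 and 1.49 percentile of their classes for that difference. How far length accounts for the values of SPRED1 and SPRED2 was not tested.

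**Figure D3:**
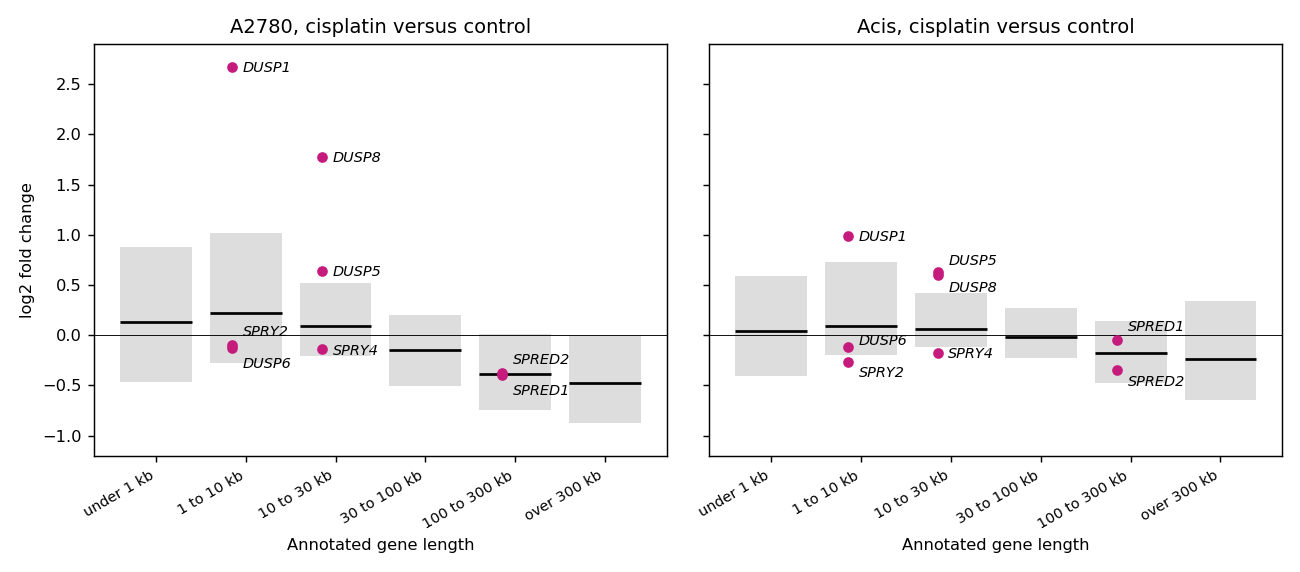
log2 fold change after cisplatin against class of annotated gene length, in A2780 (left) and Acis (right). Grey bars run from the 10th to the 90th percentile of all tested genes in a class, black lines are class medians and points are the 8 genes; SPRED1 and SPRED2 sit on the class median in A2780, and DUSP1, DUSP5 and DUSP8 lie above the grey bars in both lines.

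Open chromatin at the gene starts was read from the ATAC-seq peak lists, in which each group has 1 list kept from overlapping replicates, so no test between groups was possible. A peak had to be shared by 3 replicates in a control list and by 2 in a cisplatin list. Control and cisplatin lists are therefore not on the same footing. The fold enrichment is the peak height over the local background as the peak caller gave it. A peak lay within 500 bp of the start in 5 of the 10 genes in A2780 control and 7 in A2780 cisplatin, where 65.6% and 66.2% of tested genes had such a peak. In Acis it was 6 genes in control and 7 after cisplatin (59.4% and 63% of tested genes). DUSP1, DUSP6, DUSP10, SPRY4 and SPRED2 had a peak in all 4 lists.

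The DUSP1 start was open in every list, including that of untreated A2780, where its RNA was lowest. In A2780 the enrichment was 12.3 without and 13.4 with cisplatin, and in Acis 15.6 without and 17.3 with it, with summits between -13 and 38 bp from the start. In A2780 control the peak spanned chr5:172770678-172771391 and so covered the full CRE printed above. DUSP10, a phosphatase of JNK and p38, had the highest enrichment of the group in every list (16.2, 15.3, 22.8 and 22.0 in that order), with summits at -135 to -138 bp. For DUSP6 the values were 9.23, 6.66, 11.02 and 9.38, lower in the treated list of either line. SPRED2 gave 8.09, 6.44, 10.1 and 9.52.

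DUSP5 had a start peak in the Acis lists alone. Its enrichment was 15.6 in Acis control and 13.7 in Acis cisplatin (chr10:110497351-110497955 in the control list), with the summit at -64 and -63 bp, and no peak was listed at its locus in either A2780 list. The RNA of DUSP5 was 1.41-fold higher in Acis control than in A2780 control, but it was measured in A2780 as well. DUSP4 had a start peak in the cisplatin lists alone, at an enrichment of 5.35 in A2780 and 8.73 in Acis. An intragenic peak of DUSP4, whose summit lay about 10 kb inside the gene, was present in all 4 lists. SPRY2 had a start peak in A2780 cisplatin alone, at the low enrichment of 3.68, besides peaks further off in every list. For DUSP4 and SPRY2, the part played by the smaller number of replicates in the cisplatin lists (2 against 3 in control) was not tested.

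DUSP8 and SPRED1 had no peak within 500 bp of the start in any list. The nearest peak of DUSP8 lay upstream, with summits between -2126 and -1925 bp and enrichments of 6.22, 3.93, 6.62 and 5.21, so that the pair of CREs in its promoter window lay outside the listed peaks. SPRED1 had an upstream peak in all 4 lists, with its summit at -843 bp in 3 of them and at -773 bp in Acis cisplatin. Its enrichment was 9.17 and 8.02 in the A2780 lists (control, then cisplatin) and 16.3 and 15.5 in the Acis lists, the reverse of the order of its RNA between the lines. Higher enrichment in the Acis lists was not particular to SPRED1. The peaks given here for DUSP1, DUSP6, DUSP8, DUSP10 and SPRED2 were also higher in Acis in each condition, whereas the SPRY4 start peak was lower in Acis control. A general offset between the lists of the lines was not tested. SPRY4 had 1 wide peak over its start in the A2780 lists (7.40 and 6.61), with summits 1338 and 1483 bp inside the gene. The Acis lists held 2 narrower peaks there. The one at the start (4.21 and 6.97) had summits at -49 and 113 bp, and the other, with its summit at 1338 bp in each list, had enrichments of 10.36 and 5.91. A peak missing from a list can be a weak peak that did not pass in every replicate.

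**Figure D4:**
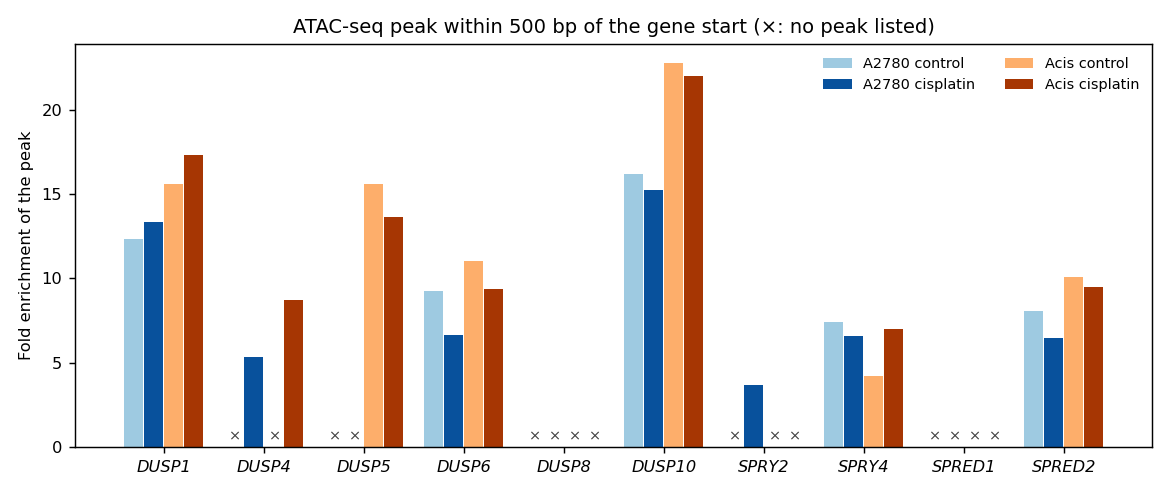
Fold enrichment of the ATAC-seq peak overlapping the 500 bp on either side of the gene start, for the 10 genes in the 4 peak lists. Bars start at 0 and a cross marks a list with no such peak; DUSP10 is highest in every list (15.3 to 22.8), and DUSP5 has bars for Acis only.

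The full CRE was also counted over the whole table. Of 310 tested genes with the full CRE in the RefSeq window, 10 (3.23%) were called higher past both thresholds in A2780, against 2.34% of 10125 tested genes with a window and no such match. DUSP1 and DUSP8 were among these 10, so the A2780 count is not independent of the genes followed here. In Acis the shares were 0.645% and 1.08%.

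The rest of the pathway was described from lists of known members. Of 7 other MAPK phosphatase and Sprouty family genes, 1 rose and 2 fell in A2780 (21.2% and 28.2% of all genes) and 1 rose and 1 fell in Acis (9.35% and 12.4% of all genes), which is near the share of all genes. DUSP2, an inducible nuclear phosphatase, rose in A2780 (log2 fold change 1.145 ± 0.10, adjusted p = 6.13e-10) and less in Acis (0.42 ± 0.08, adjusted p = 0.000341), from a level that was already higher in Acis control (194 against 87.4 normalized counts). SPRY1 fell in both lines, by log2 fold changes of -0.30 and -0.24. DUSP16, a phosphatase of JNK and p38, fell in A2780 (-0.27 ± 0.05) and was at -0.10 in Acis (adjusted p = 0.226). DUSP9 was at 0.40 in A2780 (adjusted p = 0.0518), and its level was 206 normalized counts in Acis control against 36.7 in A2780 control. Of 8 tested atypical dual-specificity phosphatases, which lack the MAP kinase docking domain, 4 rose and 1 fell in A2780, and 2 rose in Acis, against the same shares. DUSP28 rose by 0.90 (A2780) and 0.53 (Acis) on the log2 scale, DUSP12 and DUSP14 rose in A2780 by 0.19 and 0.25, and DUSP22 fell there (-0.25). With total-count scaling the splits in A2780 became 3 higher and 2 lower among the 7 family genes, and 4 higher and none lower among the atypical phosphatases.

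The kinases and adaptors that these inhibitors act on were counted in the same way. The shares of all genes do not allow for gene length. In the length class that starts at 100 kb, 69.5% of tested genes passed downward in A2780 and 42.5% in Acis. For genes of 1 to 10 kb these shares were 6.2% and 2.58%. The genes of the further lists were not compared with genes of like length, so the part of length in their decreases was not tested. Of 16 genes of the ERK cascade, 3 rose and 9 fell in A2780 (21.2% and 28.2% of all genes), and none rose and 6 fell in Acis (9.35% and 12.4% of all genes). Their median log2 fold change in A2780 was -0.13, and that of all genes -0.011. With total-count scaling the split became 5 and 7 in A2780 and 2 and 4 in Acis. The kinase BRAF (-0.78 ± 0.06), the exchange factors SOS1 (-0.59 ± 0.06) and SOS2 (-0.82 ± 0.07) and the phosphatase PTPN11 (-0.24 ± 0.03) had the smallest adjusted p-values in A2780. Of 16 genes of the JNK and p38 cascades, 2 rose and 10 fell in A2780 (median log2 fold change -0.27), and 4 fell in Acis, against the same shares of all genes, splits that became 3 and 8 in A2780 and 1 and 2 in Acis with total-count scaling. The p38 kinase MAPK14 (-0.36), its activator MAP2K6 (-0.71), MAP3K4 (-0.42) and MAP3K20 (-0.54) were among those that fell in A2780. MAP2K6 stood at 1021 normalized counts in A2780 control and at 32.1 in Acis control.

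Of 12 tested receptor tyrosine kinases and ligands, 2 rose and 7 fell in A2780 (21.2% and 28.2% of all genes), and 2 rose and 4 fell in Acis (9.35% and 12.4% of all genes). Total-count scaling changed these splits to 3 and 4 in A2780, with the decreases then near the share of all genes, and to 2 and 2 in Acis. HBEGF, a ligand of the EGF receptor, rose by log2 fold changes of 1.83 and 0.88, while EGFR (-0.84 and -0.67) fell in both lines. IGF1R fell in A2780 (-0.69) and was at -0.61 in Acis, where its call (adjusted p = 0.0431) was lost with total-count scaling (adjusted p = 0.0666). PDGFRA fell in A2780 (-0.68) from 1016 normalized counts and stood at 18.4 in Acis control. Of 8 other negative regulators of RAS and ERK signalling, 3 rose and 5 fell in A2780, and 2 rose and 5 fell in Acis, against the same shares of all genes. NF1, which encodes neurofibromin (-0.61 and -0.30), RASA2 (-0.71 and -0.31), RASAL2 (-0.60 and -0.50) and CBL (-0.56 and -0.19) fell in both lines. Of 11 tested ERK output genes, 5 rose and 1 fell in A2780 and 5 rose in Acis (21.2% and 9.35% of all genes rose). With total-count scaling 8 rose and none fell in A2780 and 6 rose in Acis. The transcription factor gene FOS rose from 73.7 to 827 normalized counts (A2780) and from 74.2 to 270 (Acis). EGR1 went from 349 to 1251 normalized counts in the sensitive line and from 1155 to 1392 in the resistant line, and both increases passed. PHLDA1 rose by 1.51 (A2780) and 2.702 (Acis) on the log2 scale, and IER3 by 0.61 and 0.40. The PHLDA1 level went from 36.4 to 105 normalized counts in A2780 and from 9.88 to 64.3 in Acis.

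Over the 12 libraries, the genes whose log2 expression followed DUSP1 most closely, among 10887 tested genes with a mean of at least 50 normalized counts, were SNHG5 (Pearson r = 0.988), RHOB (0.985) and SNHG11 (0.985). For SPRY4 they were SCARB1 (0.989), PDCD11 (0.987) and NUP188 (0.986). The points share lines, treatments and libraries, so the values are a description and carry no p. SPRY4-AS1, the antisense gene at the SPRY4 locus, was counted apart from SPRY4 because the reads kept their strand. It had 41, 34 and 36 raw counts in A2780 control and 20, 19 and 24 in Acis control, and was lower in Acis (log2 difference -0.67, adjusted p = 0.00554), whereas SPRY4 was higher.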

How the data were processed

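RNA-seq was analysed from gene counts and ATAC-seq from peak lists. The authors aligned reads to GRCh38 (hg38) with STAR 2.7.3, removed PCR duplicates and made the deposited counts with HTSeq 0.11.1 on the reverse strand, 1 column per library. The annotation release used for counting is not given in the sources used here. For ATAC-seq the authors aligned with Bowtie2 2.4.1, called peaks with MACS2 and kept those shared by replicates (3 in control and 2 in cisplatin), and the deposited lists give fold enrichment over the local background as a ratio with -log10 p-values and -log10 q-values. The study's methods give a minimum number of aligned reads for ATAC-seq, but the lists carry no read counts, so no counting interval was computed. The repair maps were not used.

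Counts of the 12 libraries were fitted together in 4 groups with edgeR 4.0.16 (R 4.3.3, limma 3.58.1), with filterByExpr, TMM factors, the quasi-likelihood test and Benjamini-Hochberg adjustment over 15760 genes. Calls used an adjusted p under 0.05, alone or with a fold threshold of 1 on the log2 scale in either direction. Standard errors come from the fitted model. The procedure was tested on simulated data. Normalized counts are counts per TMM-scaled library of mean size, and RPKM used the summed exon length of GENCODE 44. Peaks, positions and lengths were joined to the same annotation, in which 23513 of the 23622 genes were found. Motifs were searched in the 250 bases before the RefSeq starts, and figures were drawn with matplotlib 3.10.9 (Python 3.11.15, pandas 2.3.3).

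The genes, gene lists and tests were chosen with earlier results of these data known. From each further list up to 4 genes were named, those with the smallest adjusted p in A2780. For DUSP1 and SPRY4, the 3 genes with the highest Pearson correlation of log2 CPM (prior count 2) were named. Alternatives were DESeq2 1.42.0, RLE factors, total counts, no filter, the compared groups alone, a replicate block, each library left out, merged replicates, and other windows and limits for peaks. Replicate numbers did not pair the libraries: deviations of same-numbered libraries from their group means correlated between -0.206 and 0.283 over 18 pairs. Several pairs of libraries differed by less than the counting noise (0.708 to 0.950 times), among them all 3 pairs of A2780 control. Removing duplicates can lower the spread of counts, but its part here was not tested. All libraries were kept as replicates, and merging the closest pair in the other 3 groups was an alternative. A2780 control was left unmerged, so that alternative does not check the small spread of this group.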

Additional observations from a re-analysis of the deposited data

Results flagged for a closer look

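Each of these genes had a response to cisplatin that differed between the lines by the test of the difference itself (Acis minus A2780, log2 scale, edgeR, adjusted over all genes tested), in a comparison where 13.4% of all genes passed upward and 5.48% downward. Among the feedback genes, DUSP1 had a difference of -1.68 (adjusted p = 1.14e-07) and SPRED1 of 0.35 (adjusted p = 0.000503). DUSP2 differed by -0.73 (adjusted p = 0.000307).

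Of the genes that encode the cascades, BRAF differed by 0.49 (adjusted p = 9.91e-05), SOS1 by 0.34 (adjusted p = 0.00515), SOS2 by 0.40 (adjusted p = 0.0119) and PTPN11 by 0.16 (adjusted p = 0.0136). MAPK14 differed by 0.24 (adjusted p = 0.0266), MAP2K6 by 0.78 (adjusted p = 0.00798) and MAP3K20 by 0.35 (adjusted p = 0.00214). Among the other negative regulators, NF1 differed by 0.31 (adjusted p = 0.000114), RASA2 by 0.40 (adjusted p = 0.0137) and CBL by 0.37 (adjusted p = 9.73e-06). These genes were named for their small adjusted p in A2780, where each fell, so the sign of their differences is not independent of that choice. The share of all genes does not allow for gene length either. In the length class that starts at 100 kb, 28.6% of tested genes passed upward for this difference, with a class median of 0.19. For genes of 1 to 10 kb the values were 2.69% and -0.13. The part of length in the differences of the genes named here was not tested. With total-count scaling the differences of PTPN11 (0.099, adjusted p = 0.122) and MAPK14 (0.18, adjusted p = 0.107) no longer passed.

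The difference for the ligand gene HBEGF was -0.95 (adjusted p = 0.000153). FOS differed by -1.62 (adjusted p = 4.51e-09), EGR1 by -1.57 (adjusted p = 5.74e-17) and PHLDA1 by 1.20 (adjusted p = 0.00803). The genes flagged here with a difference of at least 1 in size were thus DUSP1, FOS and EGR1, which responded less in Acis, and PHLDA1, which had the larger fold change there. PHLDA1 started from a low level in Acis control (9.88 normalized counts against 36.4 in A2780 control). After cisplatin it was still lower in Acis (64.3 against 105). HBEGF, FOS, EGR1 and PHLDA1, like DUSP2 above, were named for their small adjusted p in A2780, where each rose. The sign of their differences is therefore not independent of that choice either.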

How the results depend on the processing

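Under the alternatives 541 values of single genes kept their side of the threshold, 12 calls were lost, 6 were gained and 1 value that had passed reversed its sign. Sign changes of values that did not pass were not counted as reversed. SPRED1 in Acis, for example, moved from -0.046 to 0.0081 with total counts. With total counts as library size SPRY2 reversed to 0.017 in A2780 and the number of genes past the adjusted p there was 5. DUSP1 reached the fold threshold in Acis, making that count 1, with total counts and with merged replicates, and leaving out libraries gave 0 to 1. DESeq2 and no filter on low counts each gave 2 past both thresholds between the untreated lines and 2 between the treated lines, where DUSP4 was tested and passed. Leaving out libraries gave 1 to 2 between the untreated lines, 2 without A2780 control replicate 3 or any 1 Acis control library, and 0 to 2 between the treated lines, 0 without Acis cisplatin replicate 2, and 2 without A2780 cisplatin replicate 2 or 3. The second gene was DUSP4 in each case. DUSP4 did not pass the filter on low counts with all 12 libraries, so these calls are not independent of the filter. The SPRY2 call in A2780 was lost in DESeq2 (adjusted p = 0.158), with the compared groups alone (0.137), and without A2780 control replicate 2 (0.105) or 3 (0.0817) or A2780 cisplatin replicate 1 (0.161) or 3 (0.133). The replicate block changed no count of calls: DUSP1 and DUSP8 remained the 2 genes past both thresholds in A2780, and the count in Acis was 0. No setting for the ATAC-seq windows or peak limits changed the number of genes with a start peak by more than 1.5 times. DUSP4 and DUSP8 are limited by depth, at no more than 14 and 29 raw counts in a library.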
